A study of Homo sapiens with 24 samples.

Results

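The mRNAs of 10 DNA replication and proliferation genes were followed in a map of Ago2 binding: the 6 subunits of the MCM helicase (MCM2 to MCM7), PCNA, RRM2, TYMS and MKI67. Members were all peaks of the Ago2 CLIP peak table whose annotated gene was one of these names. All 10 genes were listed, with 88 of 24041 peaks (0.366%). The cells were 293S, an adherent line derived from human embryonic kidney. One set of cultures was left untreated and the other was exposed to sodium arsenite at 1 mM for 30 min, an oxidative stress that stops translation initiation. In CLIP, RNA is crosslinked to a protein inside the cells, immunoprecipitated with it (here with an Ago2 antibody in both sets) and sequenced. Each set had 4 biological replicates of Ago2 CLIP, of RNA-seq and of a further CLIP fraction, the LO band, that served to quantify miRNAs, which makes 24 samples.

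The values are the authors': for each peak a log average of the normalized CLIP signal over both treatments, and the log ratio between arsenite and control cells, with arsenite as the numerator. A positive log ratio means more normalized Ago2 signal at that peak with arsenite. Replicates were combined in the deposited tables, so no standard deviation, no test across replicates and no depth can be given, and differences between peaks cannot be set against replicate error. The log base and the normalizer are not stated, so the log ratios are not turned into folds. Whether a log ratio reflects the amount of an mRNA or the share of it bound by Ago2 cannot be told apart here, and in a bulk lysate neither can more cells with the mRNA and more signal per cell. Of 6 genes known from this cell lineage, NEFL, LIN28B and VIM had a peak and NEFM, PAX2 and PAX8 had none, and none of 7 markers of other cell types had one. A list of Ago2 peaks does not show that a gene without a peak is not expressed.

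As background, the MCM2 to MCM7 proteins form a ring that is loaded onto replication origins in G1 and becomes the helicase of the fork in S phase. PCNA is the sliding clamp that holds DNA polymerases on their template, RRM2 is the small subunit of ribonucleotide reductase, TYMS makes thymidylate, and MKI67 encodes Ki-67, a protein of proliferating cells that coats mitotic chromosomes. Many of these genes are transcribed by E2F factors ahead of S phase. The MCM7 gene also carries, in an intron, the miR-106b-25 cluster of miRNAs (miR-106b, miR-93 and miR-25), which are relatives of the miR-17-92 cluster. An miRNA guides Ago2 to mRNAs mainly through its seed, bases 2 to 8 from its 5′ end.

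For each peak the table names those of 50 miRNA families whose 7-nucleotide seed finds a match in it. In the 10 genes, 13 families had at least 1 matched peak. The sequences below are 4 strands encoded inside MCM7 whose families the table lists, and a representative of 5 of the other matched families, shown so that each seed can be set beside the peak it matches: miR-30 for RRM2, miR-18 for MKI67, miR-7 for TYMS, miR-186-3p for MCM3 and miR-34 for MCM7. Capitals mark the seed. All come from RefSeq (GRCh38.p14), in which the first 4 lie within the MCM7 gene on the minus strand, at chr7:100094043-100094063, chr7:100094002-100094023, chr7:100093815-100093837 and chr7:100093571-100093592 in the order printed. miR-106b-5p and miR-93-5p share 1 seed, that of the miR-17 family, miR-25-3p has that of the miR-25/92 family, and miR-106b-3p, the other arm of its hairpin, has a seed of its own.
hsa-miR-106b-5p: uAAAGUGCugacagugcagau
hsa-miR-106b-3p: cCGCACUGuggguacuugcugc
hsa-miR-93-5p: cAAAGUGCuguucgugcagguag
hsa-miR-25-3p: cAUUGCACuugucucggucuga
hsa-miR-30e-5p: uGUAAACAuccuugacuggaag
hsa-miR-18a-5p: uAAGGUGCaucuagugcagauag
hsa-miR-7-5p: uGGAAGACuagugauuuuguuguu
hsa-miR-186-3p: gCCCAAAGgugaauuuuuuggg
hsa-miR-34a-5p: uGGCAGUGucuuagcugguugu

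Across the 10 genes, most peaks had more normalized Ago2 signal with arsenite, in about the same proportion as the whole table. Of the 88 peaks, 66 lay above 0 (75%, exact 95% interval over peaks 64.6 to 83.6%), where 70.3% of all peaks did. The zero point is the authors': set against the median of all peaks, 58.0% of the 88 lay higher. The median log ratio was 0.82, beside 0.65 over all peaks. A log ratio of at least 1 was listed for 41 of the 88 peaks, or 46.6%, where the background was 39.1%. Without MKI67, 69.2% of the peaks lay above 0, 36.9% had a log ratio of at least 1 and the median was 0.64, each below the value over the whole table. A log ratio of -1 or below was found at 2 peaks, 1 in MCM3 and 1 in MKI67 (2.27%), where 7.43% of all peaks had one. The exact 95% interval, 0.28 to 7.97%, holds that share. The intervals cover counting only, and they are too narrow because peaks of 1 mRNA share their source and some overlap.

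The medians of the genes were spread from -0.07 to 2.23. Ordered by the median over its peaks, RRM2 came first with a log ratio of 2.23, followed by MCM5 with 2.03, MKI67 with 1.80 and TYMS with 1.56. PCNA, MCM6, MCM2 and MCM4 lay close together between 0.64 and 0.74. MCM7 had 0.48 and MCM3 came last with -0.07, the only median of the 10 under 0. The peaks of neighbours in this order overlapped in range in every case, with MCM6 counted by its only peak. In all, 9 of the 10 gene medians lay above 0, where 81.3% of all 6088 gene medians did. The median of the 10 gene medians was 0.73, beside 0.91 over all genes. Its 95% interval over genes, 0.48 to 2.03, holds 0.91. Over peaks the order was the other way, with 0.82 for the 10 genes and 0.65 for the table. A gene median of at least 1 was found in 40% of the 10, where 46.9% of all genes had one.

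**Figure D1:**
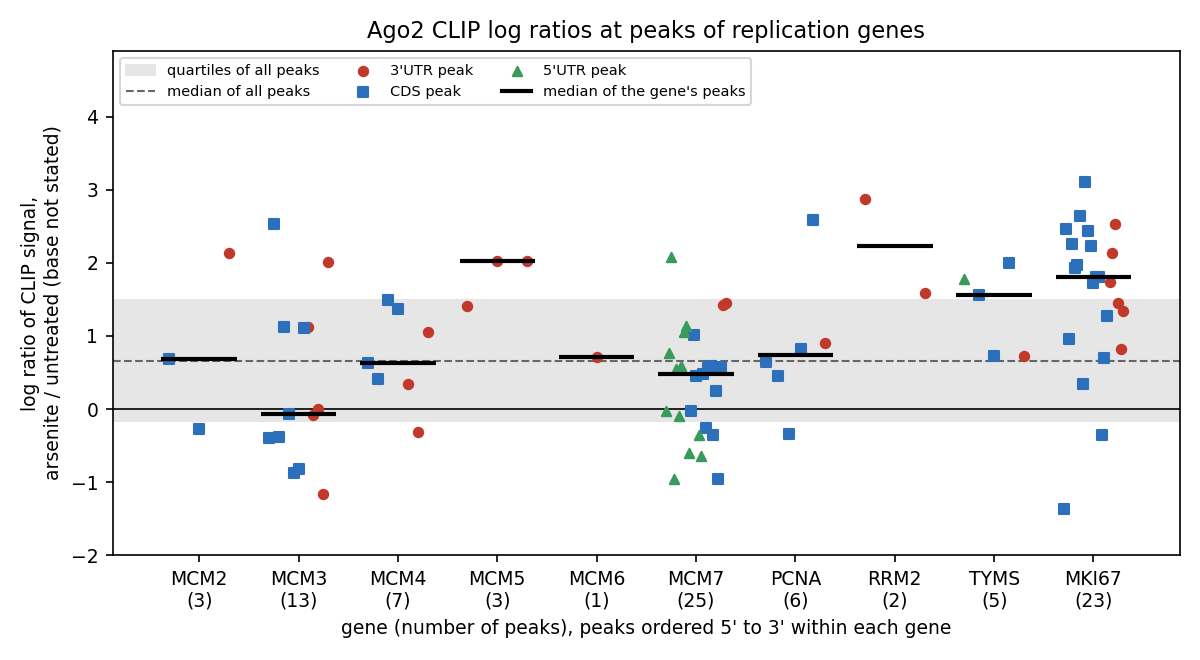
Log ratio of Ago2 CLIP signal (arsenite over untreated, y axis, log base not stated) at each of the 88 peaks, by gene (x axis, number of peaks in parentheses) and ordered 5′ to 3′ within a gene. Symbols give the annotated region, black bars the median of a gene's peaks, the dashed line the median and the grey band the quartiles of all peaks; MCM5, RRM2, TYMS and MKI67 have medians above the median of all peaks by the widest margin, and MCM3 lies at -0.07.

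The log ratios of the helicase subunits, whose proteins assemble in equal numbers, ranged widely. Over MCM2 to MCM7, 33 of 52 peaks lay above 0 (63.5%) with a median of 0.56, both below the values of all peaks. Their 95% intervals over peaks, 49.0 to 76.4% and -0.02 to 0.77, hold the 70.3% and 0.65 of all peaks. MCM7 held 25 of the 52 peaks and MCM3 13. MCM5 and MCM3 marked the ends. All 3 MCM5 peaks lay in its 3'UTR within 0.154 kb (3'UTR, the 3′ untranslated region; build hg19, chromosome 22, 35820270 to 35820423), with log ratios of 1.41, 2.03 and 2.03. The last 2 overlap and carry identical values, so they may rest on the same reads and are not separate evidence.

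MCM3 mixed high and low peaks. From 5′ to 3′ its 8 peaks in the coding sequence (CDS) had log ratios of -0.40, 2.52, -0.38, 1.13, -0.07, -0.88, -0.82 and 1.11. In its 3'UTR the 5 peaks had 1.12, -0.08, 0.0045, -1.16 and 2.01. The 2 extremes of the 3'UTR are neighbours: the peak of 2.01 (chromosome 6, 52128941 to 52128988) follows the peak of -1.16 (52129046 to 52129100) along the mRNA. Of the 13 peaks 6 lay above 0 and 7 below, and 10 of them were in the lowest 25% of log averages of the table.

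MCM2 and MCM4 also held peaks on both sides of 0. MCM2 had log ratios of 0.68 and -0.27 in the CDS and 2.14 in the 3'UTR (chromosome 3, 127340995 to 127341036). MCM4 had 0.64, 0.41, 1.49 and 1.37 in the CDS and 0.34, -0.31 and 1.05 in the 3'UTR. The only MCM6 peak, in the 3'UTR (chromosome 2, 136598326 to 136598367), had 0.71. In MCM2 the highest value was thus at the 3′ end, whereas in MCM4 the highest 2 were the last CDS peaks, which overlap.

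MCM7 had the most peaks of the 10 genes, 25 over 8.56 kb, and 15 lay above 0. Their log ratios ran from -0.95 to 2.07 with a median of 0.48. The 2 peaks of its 3'UTR had 1.42 and 1.46 (chromosome 7, 99690429 to 99690558), higher than each of the 11 CDS peaks, which ran from -0.95 to 1.02 with a median of 0.46. The 12 peaks annotated as 5'UTR spread from -0.95 to 2.07, and 6 of them lay above 0, where 60.8% of all 5'UTR peaks did. Of these 12, 10 are assigned to the transcript NM_182776 and 2 to NM_005916, which also carries all the CDS peaks. Some 5'UTR peaks of NM_182776 lie between CDS peaks of NM_005916, so the region given to a peak here depends on the transcript the authors chose.

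The peak of highest log average in MCM7 (chromosome 7, 99697897 to 99697962, a 5'UTR peak of NM_182776) had a log ratio of -0.61, against the sign of the gene's median. A statement on MCM7 therefore depends on which peak is taken for it. With 1 peak per gene, that of the highest log average, 8 of the 10 genes lay above 0, where 79.9% of all genes did, and the exceptions were MCM7 and MCM3, at -0.08. Among the 151 genes with at least 20 peaks, the median of MCM7 ranked 58 from the highest. It ranked 114 of 255 genes with at least 15 peaks and 265 of 529 with at least 10. Of all 6088 genes, 33.4% had a lower median than MCM7.

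**Figure D2:**
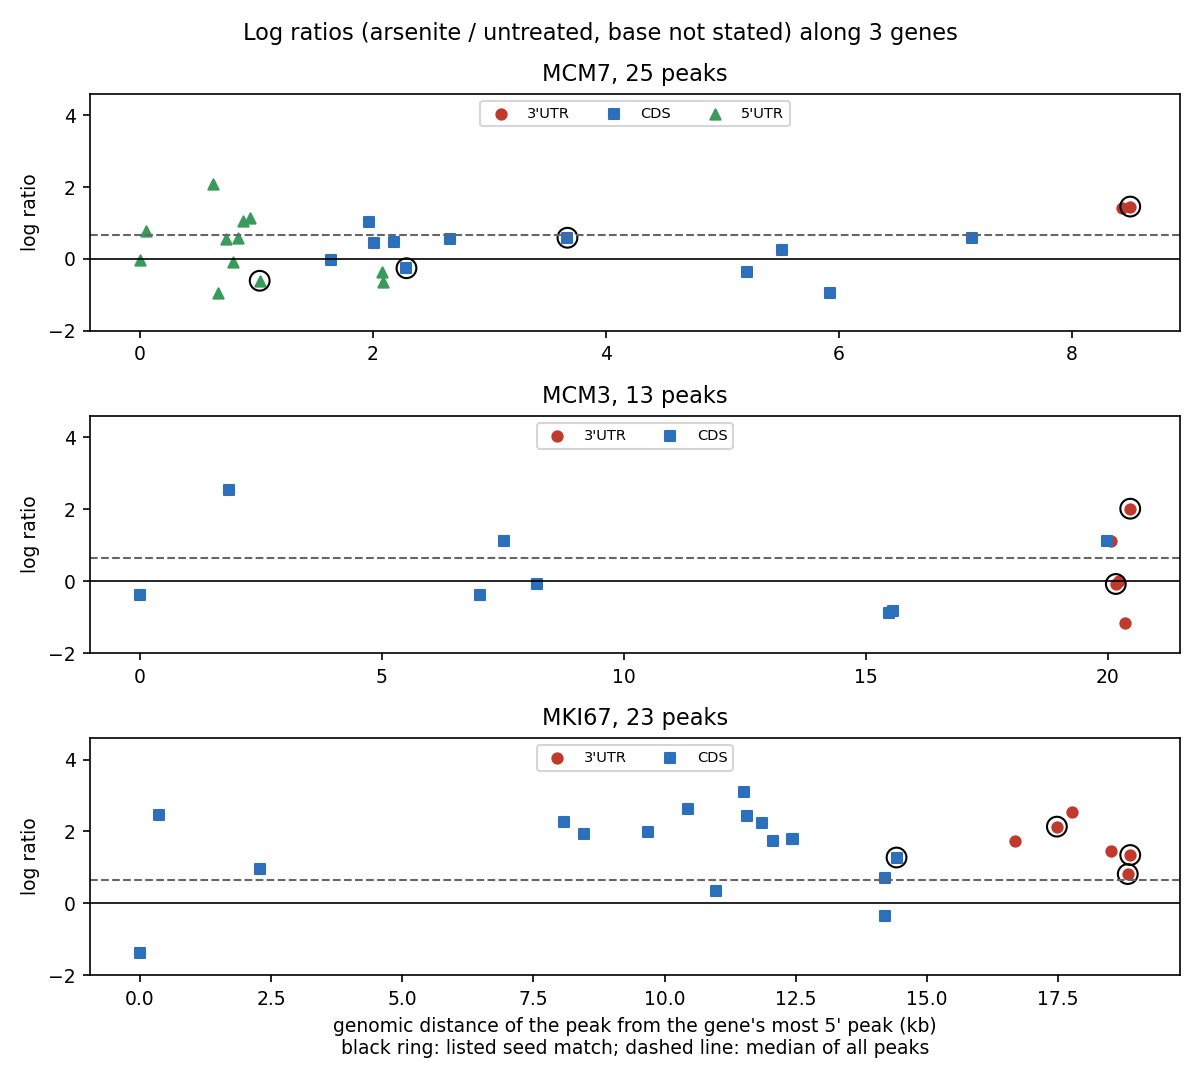
Log ratio (arsenite over untreated, y axis, log base not stated) of each peak against its genomic distance in kb from the most 5′ peak of the gene (x axis, introns included), for MCM7, MCM3 and MKI67. Black rings mark peaks with a listed seed match and the dashed line is the median of all peaks; the 2 peaks of the MCM7 3'UTR stand at 1.42 and 1.46, and MKI67 keeps values above 0 at 21 of 23 peaks.

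MKI67 had high log ratios along the length of its mRNA. Its 23 peaks ran from -1.37 to 3.10 with a median of 1.80, and 21 lay above 0. Of these peaks 17 had a log ratio of at least 1 (73.9%). In 5′ to 3′ order, the 3'UTR peaks, 6 in all, had 1.74, 2.13, 2.53, 1.45, 0.82 and 1.34. The 17 CDS peaks had a median of 1.80, and 15 of these lay above 0. The highest, 3.10, was also the MKI67 peak of the highest log average (chromosome 10, 129902425 to 129902517), and the overlapping peak beside it had 2.44. The 2 values below 0, -1.37 and -0.35, were CDS peaks, and the first is the most 5′ peak of the gene. The peak of -0.35 overlaps a peak of 0.70 that had a higher log average. A further pair of overlapping CDS peaks carried identical values of 1.80, and the 3'UTR peaks of 0.82 and 1.34 overlap as well. With overlapping peaks counted once, 19 MKI67 peaks remain.

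Every MKI67 peak was in the lowest 25% of log averages, which ended at -6.25, with values from -8.89 to -7.07. Of the 2557 peaks of other genes with a log average of -7.07 or lower, 63.8% lay above 0 and 31.5% had a log ratio of at least 1, with a median of 0.43. Whether the low signal bears on the MKI67 values was not tested. Over all 24041 peaks, log average and log ratio had a Spearman rho of -0.0056, and over the 23 MKI67 peaks, which share 1 mRNA and the same libraries, 0.34. Among the 151 genes with at least 20 peaks the MKI67 median was the highest, and the next gene had 1.63. With at least 15 peaks it ranked 4 of 255 genes, and with at least 10 peaks 17 of 529. Of all 6088 genes, 80.7% had a lower median than MKI67. These ranks describe 1 combined table and carry no test. A low log average may mean few reads behind each value, and the files give no read counts.

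**Figure D3:**
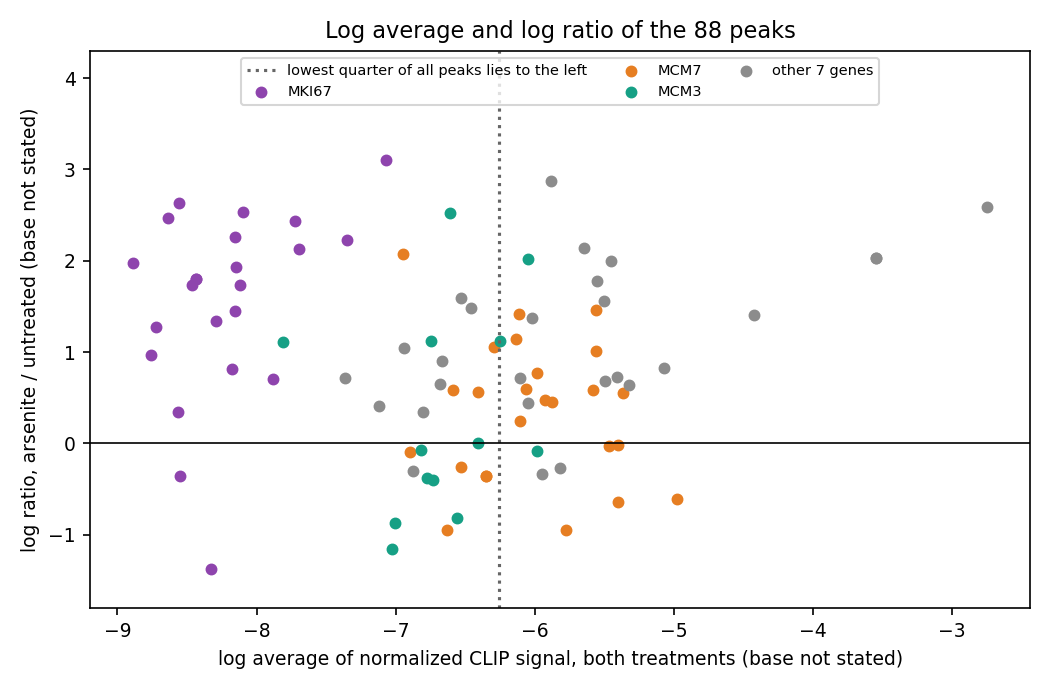
Log ratio (y axis, arsenite over untreated) against log average of the normalized CLIP signal over both treatments (x axis), both with the log base not stated, for the 88 peaks. Points are coloured for MKI67, MCM7 and MCM3 and grey for the other 7 genes, and the dotted line at -6.25 bounds the lowest 25% of all peaks; all 23 MKI67 peaks lie to its left, and 21 of them above 0.

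The genes of nucleotide supply, RRM2 and TYMS, had no peak below 0, and neither had MCM5 with 3 peaks or MCM6 with 1. RRM2 had 2 peaks, both in its 3'UTR, with log ratios of 2.88 (chromosome 2, 10269858 to 10269904) and 1.59. TYMS had 5 peaks, with 1.77 in the 5'UTR, 1.56, 0.73 and 2.003 in the CDS and 0.72 in the 3'UTR (all on chromosome 18, between 657686 and 673088). The TYMS 5'UTR peak overlaps its CDS peak of 1.56. Peaks all above 0 were found in 21.4% of the genes with at least 5 peaks. This share applies to TYMS, and does not cover RRM2, MCM5 or MCM6, which had fewer peaks. On the other strand of the TYMS locus the table lists C18orf56, with a CDS peak of -0.85 (658066 to 658092) between the TYMS peaks, and whether reads were assigned by strand is not stated.

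PCNA had 6 peaks, and 1 of these stood apart. From 5′ to 3′ its CDS peaks had log ratios of 0.65, 0.45, -0.34, 0.83 and 2.59, and its 3'UTR peak 0.91. The peak of 2.59 (chromosome 20, 5095935 to 5095971) is the last of the CDS and had a log average of -2.75, the highest of all 88 peaks. The other PCNA peaks had log averages of -5.07 or lower. So the value of the whole gene is 2.59 by its leading peak and 0.74 by its median. The CDS peaks before the last each overlap a neighbour and are not separate sites. With overlapping peaks counted once, 3 PCNA peaks remain, so the median of 0.74 rests largely on 1 stretch.

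Region by region, the 10 genes had shares above 0 in the order of the whole table. In 3'UTRs 22 of 25 peaks lay above 0 (88.0%), where 76.2% of all 3'UTR peaks did, and their median was 1.41 beside 0.88. In the CDS 37 of 50 peaks lay above 0 (74.0%), where the background was 68.4%, with medians of 0.69 and 0.58. MKI67 held 17 of these CDS peaks, 15 above 0, with a median of 1.80. Over MCM2 to MCM7, 15 of 25 CDS peaks lay above 0 (60%) with a median of 0.46, both below the table. The 95% intervals of these 2 values, 38.7 to 78.9% and -0.26 to 0.64, hold those of all CDS peaks. In 5'UTRs 7 of 13 peaks lay above 0, and 12 of these 13 were in MCM7. The exact 95% intervals over the members' peaks, 68.8 to 97.5% for 3'UTRs and 59.7 to 85.4% for the CDS, hold the shares of the whole table.

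Within genes, the difference between regions had no single direction. Of the 7 genes with peaks in both regions, 4 had a higher median in the 3'UTR than in the CDS, where 60.2% of 1862 such genes did. The difference of 3'UTR minus CDS was 1.93 in MCM2 and 0.98 in MCM7. It was 0.26 in PCNA and 0.23 in MCM3, and it was negative in MKI67 (-0.21), MCM4 (-0.66) and TYMS (-0.84). MCM2, PCNA and TYMS had 1 peak each in the 3'UTR. In MCM4 the 3'UTR median is the peak of 0.34, which overlaps the CDS peak of 1.37. The 2 regions are thus not separate stretches in MCM4. RRM2, MCM5 and MCM6 had 3'UTR peaks only, so nothing can be said of their CDS.

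Matched and unmatched peaks of these genes had nearly the same median: 0.82 over the 15 peaks with a listed seed match and 0.83 over the 73 without one. Over the whole table these medians were 1.06 and 0.48. The difference between the 10 genes and the table was not tested, and 15 peaks are few. Above 0 lay 11 of the 15 (73.3%), where 79.2% of all peaks with a match did, and 55 of the 73 (75.3%), where 66.2% of all peaks without a match did. The exact 95% interval for the 15 peaks, 44.9 to 92.2%, is wide and covers both backgrounds. In MKI67 the 4 matched peaks had a median of 1.31 and the 19 unmatched ones 1.80. Over MCM2 to MCM7 the 8 matched peaks had a median of 0.26 and the 44 unmatched ones 0.56.

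Of the 15 matched peaks, 3 match at least 1 strand of the miR-106b-25 cluster, or 20%, where 15.5% of all matched peaks in the table do. Both shares were counted with miR-93-3p and miR-25-5p besides the 4 strands printed above. None of the 3 matches miR-106b-3p. The RRM2 peak of 2.88 in the 3'UTR matches the seed of miR-106b-5p and miR-93-5p, and also that of the miR-30 family. The MKI67 CDS peak of 1.28 (chromosome 10, 129899578 to 129899612) matches the same miR-17 family seed. The MCM2 CDS peak of 0.68 (chromosome 3, 127325498 to 127325577) matches miR-25-3p. Over the whole table, peaks matching the miR-17 family had a median of 1.67 and those matching the miR-25/92 family 1.72, so the RRM2 peak lay above its family's median and the other 2 below theirs. No peak of MCM7 itself matched a miRNA of its own intron.

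The other 12 matches were spread over 10 families. In MKI67, a miR-18 match had 2.13, a miR-324-3p match 1.34 and a miR-31-5p match 0.82. TYMS had a miR-7-5p match at 2.003 (CDS), and MCM3 had 2 matches to miR-186-3p in its 3'UTR, at 2.01 and -0.08. The MCM4 3'UTR peak of -0.31 matches miR-186-5p, and the PCNA CDS peak of 0.45 matches miR-19. In MCM7 the 3'UTR peak of 1.46 matches miR-103a-3p and miR-107, a CDS peak of 0.59 matches miR-15/16, a CDS peak of -0.26 matches miR-324-3p and the 5'UTR peak of -0.61 matches the miR-34 and miR-449 family. The same family thus went with unlike values: miR-186-3p at 2.01 and -0.08 within the same 3'UTR, and miR-324-3p at 1.34 in MKI67 and -0.26 in MCM7. A match is a description of letters in the peak, and does not show that the miRNA guided Ago2 there.

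The strands encoded in MCM7 were themselves measured on Ago2 in the LO band. In the authors' deposited table the strand of this cluster with the highest mean was miR-106b-3p, with 243816 normalized counts untreated and 222575 with arsenite (log2 fold change -0.13, DESeq p = 0.496, adjusted p = 1). In the authors' deposited table, miR-25-3p had means of 182650 normalized counts untreated and 187878 with arsenite (log2 fold change 0.04, DESeq p = 0.878, adjusted p = 1). In the authors' deposited table, the log2 fold changes were 0.09 for miR-93-5p (DESeq adjusted p = 1) and 0.0031 for miR-106b-5p (adjusted p = 1). The authors' deposited table lists no adjusted p under 0.05 among 1213 entries, and 24 unadjusted p-values under 0.05. A p that misses the threshold does not show that these miRNAs were equal in both treatments.

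The other replication genes lay mostly above 0, as did most genes of the table. Of 65 further gene symbols of licensing, fork, polymerase, nucleotide and chromatin assembly functions, 32 had a peak, 107 peaks in all. CTPS, an older symbol of CTPS1, was counted beside it among the 65. With the peak of highest log average for each gene, 28 of the 32 lay above 0 (87.5%, exact 95% interval over genes 71.0 to 96.5%), beside the 79.9% of all genes given above. Against the median of all genes, 53.1% lay higher. Their median was 1.33, beside 1.10 over all genes and 0.72 for the 10 genes. With all peaks of a gene taken by their median instead, the order turned: the 32 genes had a median of 0.88, beside 0.91 over all genes. The 4 below 0 at the leading peak were TIMELESS at -0.68, ASF1B at -0.47, POLD2 at -0.36 and CDT1 at -0.12. Over all their peaks, 3 each, ASF1B had a median of 0.37 and CDT1 of 0.41, whereas TIMELESS and POLD2 had 1 peak.

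Among the licensing factors, which load the MCM ring, 5 of 13 were listed. CDC6, a loader of the ring, had 2.85, MCMBP, an MCM-binding protein, 2.07, and GMNN, the inhibitor of CDT1, 0.75. The lowest were ORC4, an origin recognition subunit, at 0.51 and CDT1, the partner of CDC6, at -0.12. Values of the CDC6 peaks differed, since the median over its 3 peaks was 1.12, and that of CDT1 was 0.41, above 0. MCMBP and ORC4 had 1 peak each.

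Of the 12 genes that activate the helicase or travel with the fork, 9 were listed and 8 lay above 0, with a median of 1.57. Over all genes 79.9% lay above 0 at the leading peak, with a median of 1.10. TIPIN, a fork protection protein, had 3.003, CDC7, the kinase that phosphorylates the MCM ring, 1.86, and CLSPN, a checkpoint adaptor, 1.73. The lowest were CDC45 at 1.33 and GINS2 at 0.78, both parts of the active helicase, and TIMELESS, the partner of TIPIN, at -0.68. TIPIN and TIMELESS had 1 peak each, so the gap between these partners rests on a pair of peaks.

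In the maturation group 5 of 6 genes were listed and all 5 lay above 0, where 79.9% of all genes did. The median of the 5 was 0.91, beside 1.10 over all genes. DNA2, a nuclease, had 1.91, TOP2A, a topoisomerase, 1.71, and RNASEH2A, a subunit of an enzyme that removes RNA from DNA, 0.91. TOP1 and LIG1, the ligase of Okazaki fragments, had 0.50 and 0.065. The median over the 16 peaks of TOP2A was 0.43, well below its leading peak. The remaining groups had fewer than 5 listed genes: polymerases ran from -0.36 to 1.33 over 4 genes, clamp loader and RPA subunits from 0.40 to 3.33 over 3, nucleotide supply genes from 1.32 to 1.76 over 4, and chromatin assembly factors from -0.47 to 0.84 over 2. These are leading peaks: CTPS1, which makes CTP, had 1.33 there and a median of -0.16 over its 7 peaks.

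**Figure D4:**
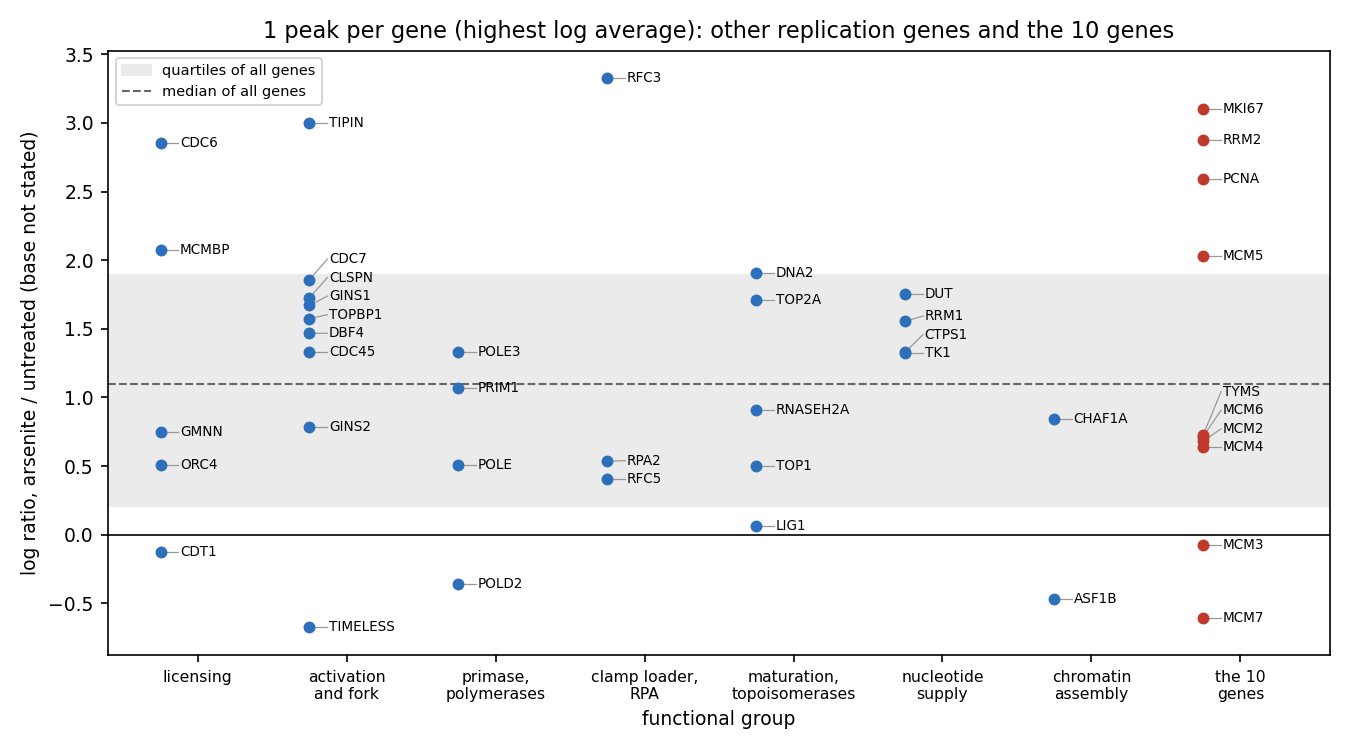
Log ratio (arsenite over untreated, y axis, log base not stated) at the peak of highest log average of each gene, for 32 other replication genes by function (blue) and the 10 genes of the MCM, PCNA, RRM2, TYMS and MKI67 set (red). The dashed line and grey band are the median and quartiles of all genes; TIMELESS, ASF1B, POLD2, CDT1, MCM3 and MCM7 lie below 0.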

How the data were processed

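The data come from 2 deposited tables. Per the file headers, the peak table holds for each peak its position, transcript and region, seed matches, and the authors' log average and log ratio, treated here as a score because log base and normalizer are not stated. The miRNA table holds the authors' deposited means (signal: counts divided by size factors), their ratio (fold), log2 fold change, and p-values with adjusted p-values from DESeq, per the file headers. Bowtie 0.12.8, TopHat and DESeq are named in the submitters' processing notes without their roles, as is the build hg19. The peak caller is not given in the sources used here. Peak positions follow the deposited table (hg19), which does not say if its starts are 0-based or 1-based.

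Peaks were selected by gene name with pandas 2.3.3 in Python 3.11.15. Lists were described by counts, medians and exact (Clopper-Pearson) 95% binomial intervals from scipy 1.17.1, beside the same counts over all peaks or genes. Intervals of medians were taken from the ranked values by the binomial distribution. The functions were tested on simulated data. No column of single samples was present, so no replicate test was run. The members, the list of 65 gene symbols and the rules were chosen with earlier results of these data known. The limits of 10, 15 and 20 peaks for ranking genes were set after the values were seen. So was the comparison with peaks of as low a log average as MKI67.

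All members were named, with each matched peak. Other genes were named by the 3 highest and 3 lowest leading peaks in functional groups with at least 5 listed genes (all 5 where 5 were listed), and the 4 below 0 and the values of CDC6, CDT1, ASF1B, CTPS1 and TOP2A over all their peaks were added after the values were seen. Alternatives were 1 peak per gene, the upper 75% of log averages, overlapping peaks counted once, leaving out each gene, single regions and centring on all peaks, and, added after seeing the data, identical values counted once. Of the 33 list symbols with no peak, 32 were in the table of gene names, and 0 of these were listed under an older symbol. CTPS, itself an older symbol of CTPS1, is among the 33, whereas CTPS1 had 7 peaks.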

Additional observations from a re-analysis of the deposited data

How the results depend on the processing

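Of the 71 alternative values of the main shares and medians, 61 stayed inside the 95% interval of the reported value. With 3'UTR peaks only, the median log ratio of the 10 genes was 1.41, the share above 0 was 88.0% and the share of at least 1 was 64.0%. Over all 3'UTR peaks these values were 0.88, 76.2% and 45.8%. With log ratios centred on the median of all peaks, the median was 0.17. The shares were then 58.0% above 0, 27.3% of at least 1 and 14.8% of -1 or below. The last 2 shares were not computed over all peaks at this shifted zero. They cannot be set against 39.1% and 7.43%, which belong to the log ratios before centring. Of the other replication genes, 53.1% lay above 0 when centred on all genes. The share of -1 or below was 0% with 1 peak per gene and 0% in the upper 75% of log averages, which left 37 peaks and no MKI67 peak. Leaving out MKI67 gave a median of 0.64 and leaving out MCM7 1.13, the lowest and highest without 1 gene. MCM7 changed sign between its leading peak (-0.61) and the median over its peaks (0.48). PCNA, MKI67 and TYMS moved from 2.59 to 0.74, 3.10 to 1.80 and 0.73 to 1.56, by more than 1 SD of their peaks. No paired analysis was possible because the tables hold no replicate values, and for the same reason leaving out replicates was not run. Depth is unknown.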
